A study of Homo sapiens with 21 samples.

Results

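The genes described here are the nuclear genes of respiratory complex I and its assembly factors: every protein-coding row of the count table whose symbol starts NDUFA, NDUFB, NDUFC, NDUFS or NDUFV. The rule found 48 such genes among the table's 54042 rows. The 8 whose symbols start NDUFAF (NDUFAF1 to NDUFAF8) form the assembly-factor class and the other 40 the structural class. After the filter on low counts 45 were tested, 37 structural and all 8 assembly factors. NDUFA13 (20 counts over all libraries), NDUFV2 (59 counts) and the readthrough row NDUFC2-KCTD14 (0 counts) were not tested. Another 66 rows with such symbols are not protein-coding, most of them pseudogenes, and are no members. Reads that match both a gene and its pseudogene copy may have been split between them or dropped.

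Complex I, NADH:ubiquinone oxidoreductase, is the entry point for electrons from NADH into the mitochondrial respiratory chain. NADH gives its electrons to a flavin in the N module at the tip of the peripheral arm. A chain of iron-sulfur clusters carries them through the Q module to ubiquinone, and the membrane arm pumps protons. Core subunits carry the catalysis, a larger set of accessory subunits surrounds them, and assembly factors help to build the enzyme without being part of it. Core subunits of the membrane arm are encoded by mitochondrial DNA.

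The study measured RNA in MV4-11, a leukaemia cell line labelled as biphenotypic B myelomonocytic, after treatment with ironomycin (AM5), a small molecule derived from salinomycin, or with the solvent DMSO. The series' title names pharmacological lowering of mitochondrial iron, and the knockout arms allow the response to be compared between genotypes. The 7 groups of 3 libraries were cells labelled wildtype given DMSO, wildtype given ironomycin for 6 h, wildtype given ironomycin for 24 h, HK2 CRISPR KO given DMSO, HK2 CRISPR KO given ironomycin for 24 h, PGP CRISPR KO given DMSO, and PGP CRISPR KO given ironomycin for 24 h. HK2 encodes a hexokinase, and PGP encodes phosphoglycolate phosphatase. The labels do not give the DMSO time of each library, the edited sites, whether a knockout line is a clone or a pool, or whether the replicates are separate cultures. Time in culture and treatment therefore cannot be told apart where the times differ, and p-values measure the spread between these libraries, which may be technical.

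Library totals ranged from 3829274 to 6069264 counts over the 21 libraries, with a median of 4823817, so that 3 counts corresponded to 0.498 to 0.803 CPM (counts scaled by library size). The 3′ tags give levels that can be compared between groups for 1 gene but not between genes. HK2 stood at 52.6 ± 14.7 CPM (SD, n = 3) in wild-type DMSO cells and at 22.0 ± 2.49 CPM in HK2 knockout DMSO cells, without overlap. PGP stood at 90.6 ± 4.49 CPM in wild-type DMSO cells and at 75.4 ± 7.10 CPM in PGP knockout DMSO cells, also without overlap. Neither difference passed an adjusted p of 0.05 in edgeR, which placed 0% of all genes tested lower in either knockout in DMSO. Wild-type cells at 6 h of ironomycin stood at 27.4 ± 14.8 CPM for HK2 and 53.3 ± 9.31 CPM for PGP. A 3′ tag away from the edited site need not reflect the edit. Of 10 markers fixed for the line, FLT3, MEIS1, HOXA9, CD33, CSF1R, MPO, SPI1 and IGLL1 were counted in all 21 libraries, while the monocyte gene LYZ had 0 to 11 counts and CEBPA was at 0 in 20 libraries. The summed line markers lay between 427.7 and 728.7 CPM, but single markers differed between treated and DMSO libraries at 24 h. IGLL1 stood at 35.4 ± 14.6 CPM in wild-type DMSO libraries and 2.87 ± 0.585 CPM at 24 h, against 37.0 ± 12.9 and 5.76 ± 1.18 CPM in HK2 knockout and 51.3 ± 15.7 and 4.99 ± 1.59 CPM in PGP knockout cells (SD, n = 3). MPO stood at 12.6 ± 0.624 and 5.51 ± 2.28 CPM in the same wild-type groups, 11.995 ± 2.10 and 5.58 ± 0.523 CPM in HK2 knockout and 17.7 ± 4.90 and 6.12 ± 0.686 CPM in PGP knockout cells. For both genes all 24 h libraries lay below the DMSO libraries of their genotype. Of 8 markers of other cell types, EPCAM and KRT18 were at 0 in all libraries. The summed 8 were at most 0.663 CPM in wild-type DMSO libraries, 0.972 CPM in wild-type libraries treated for 24 h, 3.19 CPM in PGP knockout DMSO libraries and 7.67 CPM in PGP knockout libraries treated for 24 h. HBB gave up to 5.65 CPM of these. The wild-type 6 h replicate 2 stood apart: the SD of its log2 deviation from the other replicates over genes was 0.675, against 0.332 to 0.480 in the other 20 libraries. Among the 45 tested genes it lay more than 0.5 log2 units below the other 6 h libraries for 8 and above them for 9. NDUFB3 (-2.12), NDUFB6 (-2.06) and NDUFC1 (-1.21) were the lowest there, and NDUFA7 (0.87) and NDUFA11 (0.82) the highest. The part of this library in the 6 h results is given beside them as values without it.

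The summed RNA of the genes of each class was lower in every treated group than in the DMSO group of its genotype. The structural sums include NDUFA4, which the rule places here by name although it is a subunit of complex IV. The 40 structural genes summed to 6821, 6583 and 6507 CPM in wild-type DMSO replicates 1 to 3, to 5471, 5634 and 5385 CPM at 6 h and to 4622, 5228 and 4793 CPM at 24 h. All 3 libraries at 6 h lay below all 3 DMSO libraries, and all 3 at 24 h lay below those at 6 h. The same sum was 6472, 6428 and 6328 CPM in HK2 knockout DMSO cells and 5156, 4718 and 5028 CPM after 24 h. In PGP knockout cells it was 6572, 6798 and 7087 CPM in DMSO and 4403, 4757 and 5411 CPM after 24 h. The treated and DMSO libraries did not overlap in either knockout. The 8 assembly factors summed to 635, 659 and 609.6 CPM in wild-type DMSO cells, 442, 542 and 429 CPM at 6 h and 439, 461 and 462 CPM at 24 h. Here the 6 h and 24 h libraries overlapped, and both lay below DMSO. CPM are shares of a library, and in such bulk libraries fewer cells of a type and less RNA per cell cannot be told apart. The line markers IGLL1 and MPO were lower in the same 24 h libraries, and their part in the complex I values was not tested.

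**Figure D1:**
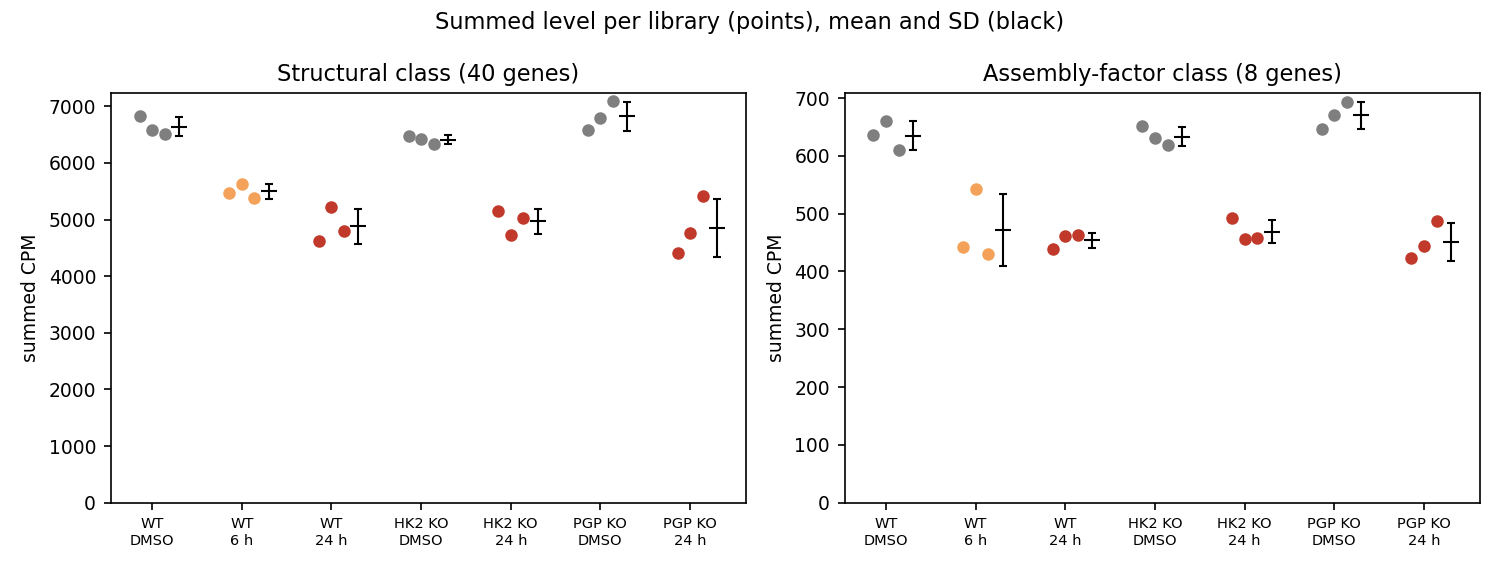
Summed CPM (y axis, from 0) of the 40 structural genes and of the 8 assembly factors in each of the 7 groups; each point is 1 library, and black bars give the mean and SD of 3. Structural sums had means of 6637 CPM in wild-type DMSO, 5497 CPM at 6 h and 4881 CPM at 24 h, and the assembly factors stood at 635, 471 and 454 CPM in the same groups.

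After 6 h of ironomycin, 18 of the 45 tested genes were called lower and 2 higher than in wild-type DMSO cells. A call is an adjusted p below 0.05 in edgeR's quasi-likelihood test, with Benjamini-Hochberg adjustment over all 11610 genes tested, of which 11.1% were called lower and 10.9% higher in this comparison. By place in the enzyme, 10 of the 20 tested membrane-arm subunits and 1 of the 15 tested subunits of the peripheral arm, NDUFS6, were called lower. The count of 18 also holds NDUFA4, a subunit of complex IV that belongs to neither arm. The difference between the arms was not tested. Of the assembly factors, 6 of 8 were called lower. The median log2 fold change was -0.58 over the assembly factors and -0.24 over the structural genes, beside 0.02 over all genes tested. Without the 6 h replicate 2, the counts were 8 lower in the membrane arm, 3 in the peripheral arm and 6 among assembly factors. Fitted alone, these 2 groups gave 3 membrane-arm genes, 1 peripheral-arm gene and 3 assembly factors called lower. The 2 genes called higher were NDUFV1, the core subunit that binds NADH and flavin, and NDUFA4L2, a paralog of NDUFA4 known as a hypoxia-induced gene. NDUFA4L2 passed the low-count filter only through libraries outside the wild-type DMSO group.

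After 24 h of ironomycin, 23 genes were called lower and 1 higher than in wild-type DMSO cells, where 14.6% of all genes tested were called lower and 15.3% higher (29.8% in either direction). The 1 called higher was NDUFA4L2, which passed the low-count filter only through libraries outside the wild-type DMSO group. Its call was lost without DMSO replicate 2 or 3 or the 24 h replicate 3. The peripheral arm now had 9 of 15 subunits called lower, 6 of the 9 tested in the N module and 3 of the 6 in the Q module. The membrane arm had 10 of 20: 5 of 6 on the side of ND5, 3 of 6 beside ND4, 1 of 5 beside ND2 and 1 of 3 beside ND1. Among the 6 tested core subunits encoded in the nucleus, NDUFV1, NDUFS3 and NDUFS8 were called lower. Only 3 of the 8 assembly factors were called lower (NDUFAF4, NDUFAF7 and NDUFAF8). The count of 23 also holds NDUFA4 of complex IV. The medians were -0.39 for structural genes and -0.35 for assembly factors, beside 0.03 over all genes tested. Both wild-type comparisons use the same DMSO libraries.

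**Figure D2:**
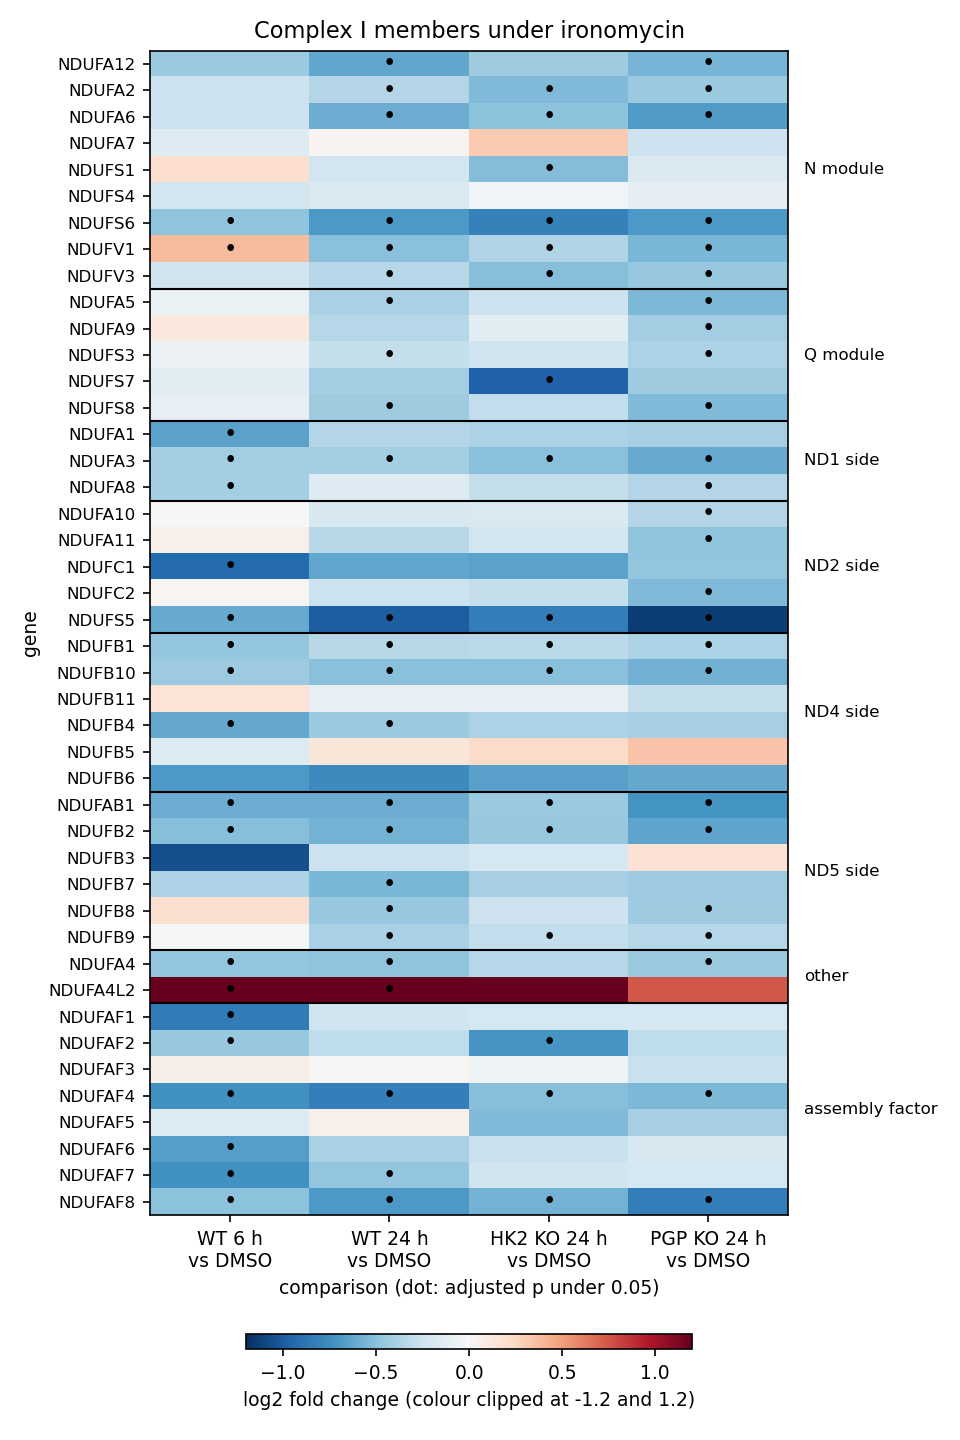
Log2 fold change of the tested genes (rows, grouped by place in the enzyme; 1 gene not drawn) in the 4 comparisons of ironomycin with DMSO (columns); blue is lower and red higher, colours are cut at -1.2 and 1.2, and a dot marks a call at an adjusted p below 0.05. NDUFS5, NDUFS6, NDUFAB1, NDUFAF4 and NDUFAF8 are lower in all 4 columns, and NDUFV1 is the only subunit of the peripheral arm called higher, in the 6 h column.

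Set directly against 6 h, the 24 h wild-type libraries had 6 structural genes called lower and 1 assembly factor called higher. Of all genes tested, 8.08% were called lower and 8.48% higher (16.6% in either direction). The 7 of 45 tested members called is near that share. NDUFV1, NDUFS1, NDUFA9, NDUFB8, NDUFB9 and NDUFS5 were lower at 24 h than at 6 h, and NDUFAF1 was higher. For NDUFA9, a dehydrogenase-like subunit of the Q module, the adjusted p was 0.0340 in edgeR and 0.303 without the 6 h replicate 2, and for NDUFS1 0.0258 and 0.0609. The count of 7 rested on single libraries. It was 3 without the 6 h replicate 2, 12 without the 6 h replicate 3 and 3 without the 24 h replicate 3, and 1, NDUFV1, when the 2 groups were fitted alone. In the order of group means, 18 of the 37 structural genes went down from DMSO to 6 h to 24 h, 8 were lowest at 6 h with 24 h between, and 8 were highest at 6 h and lowest at 24 h. Of the 8 assembly factors, 2 followed the first order, 4 the second and none the third. Neighbours in these orders often differed by less than the spread between libraries.

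Some promoters of these genes hold short motifs that the choice of genes did not use. Of the 48 genes, 40 have a window in a RefSeq table of promoters (build GRCh38.p14, from 250 bases before to 50 after the annotated start), while the counts were made on hg19. The motif AANATGGC, which contains the core that YY1 is known to bind, was found on either strand in the windows of 15 of the 40 genes (37.5%), against 7.97% of 27305 genes and 6.58% of 35116 windows in the table. The genes of the table were not matched to the members in type or expression, and the difference was not tested. The windows of 8 genes are printed because they put genes with unlike responses beside each other under the same letters. The first 4 were called lower at 24 h in all 3 genotypes, NDUFB8 and NDUFS3 in 2 of them, and NDUFS4 and NDUFA7 in none. Capitals mark the motif, which begins 9 to 26 bases after the start, counting the start as base 1. The motif holds the letters ATG, so there it can overlap the beginning of the coding sequence, which was not tested.
NDUFS6: gccagcggcgcAAAATGGCggcggcgatga
NDUFA6: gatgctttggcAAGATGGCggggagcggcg
NDUFA3: ccgcggagacaAAGATGGCtgcgagtaagt
NDUFAF8: aggacggacctAAGATGGCggcctccaggg
NDUFB8: tgaagaaggtgAAGATGGCggtggccaggg
NDUFS3: tgcatctgagtAACATGGCggcggcggcgg
NDUFS4: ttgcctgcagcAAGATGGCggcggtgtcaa
NDUFA7: atcgcggacggAAGATGGCgtccgccaccc
In the order printed, these windows are NDUFS6 chr5:1801404-1801433 (plus strand), NDUFA6 chr22:42090729-42090758 (minus strand), NDUFA3 chr19:54102865-54102894 (plus strand), NDUFAF8 chr17:81239316-81239345 (plus strand), NDUFB8 chr10:100529836-100529865 (minus strand), NDUFS3 chr11:47579078-47579107 (plus strand), NDUFS4 chr5:53560649-53560678 (plus strand) and NDUFA7 chr19:8321343-8321372 (minus strand).
Of the 14 tested genes with this motif, 7 were called lower at 24 h in wild-type cells, and of the 23 tested genes with a window but without it, 13.

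The palindromic motif of NRF1 (GCGC, any base, then TGCGC), a factor known for nuclear genes of the respiratory chain, was found in 7 of 40 genes (17.5%) against 6.98% of genes in the table. GGGCGG, the box bound by SP1, was in 65.0% against 48.3%, and the ETS motif CCGGAAG in 17.5% against 12.2%. TGATGNAA, a shortened form of the ATF4 site, was in 5.0% against 4.46%. Matches were counted on both strands, and the NRF1 and SP1 boxes can overlap other GC-rich letters. The 120 bases before the start are printed for 3 genes with different time courses: NDUFS6 was lower at both times, NDUFV1 was higher at 6 h and lower at 24 h, and NDUFAF1 was called lower at 6 h and not at 24 h. Capitals mark an SP1 box read on the other strand, and no other of the 5 motifs was found in these stretches.
NDUFS6: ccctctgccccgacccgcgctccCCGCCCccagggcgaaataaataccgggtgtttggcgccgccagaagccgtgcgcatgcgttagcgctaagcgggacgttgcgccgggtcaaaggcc
NDUFV1: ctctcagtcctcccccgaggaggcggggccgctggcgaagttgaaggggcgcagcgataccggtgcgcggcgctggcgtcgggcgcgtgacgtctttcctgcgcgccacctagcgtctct
NDUFAF1: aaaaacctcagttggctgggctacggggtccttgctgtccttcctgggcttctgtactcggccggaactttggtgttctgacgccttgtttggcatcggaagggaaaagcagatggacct
Their positions are NDUFS6 chr5:1801287-1801406 (plus strand), NDUFV1 chr11:67606816-67606935 (plus strand) and NDUFAF1 chr15:41402497-41402616 (minus strand).
A match is a description of letters and not of binding.

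In the N module, NDUFV1 changed direction between the times. It stood at 127, 109 and 109 CPM in the 3 wild-type DMSO libraries, at 147, 175 and 129 CPM at 6 h and at 83.0, 87.7 and 73.5 CPM at 24 h. All 6 h libraries lay above all DMSO libraries, and all 24 h libraries below them. Its log2 fold change was 0.38 ± 0.13 (SE) at 6 h (adjusted p = 0.0336, edgeR) and -0.50 ± 0.13 at 24 h (adjusted p = 0.00492). From 6 h to 24 h it fell by 0.88 ± 0.13 on the log2 scale (adjusted p = 4.27e-05), a call kept under every alternative and without each library. The rise at 6 h was lost without DMSO replicate 2 (adjusted p = 0.114), without DMSO replicate 3 (0.126), without the 6 h replicate 2 (0.171), without the low-count filter (0.0694) and when the compared groups were fitted alone (0.116). The HK2 knockout libraries stood at 135, 115 and 114 CPM in DMSO and 96.6, 94.3 and 92.0 CPM after 24 h, and the PGP knockout libraries at 109.9, 125 and 134 and 73.3, 82.0 and 97.6 CPM. Treated libraries lay below DMSO libraries in both knockouts. The fold change was -0.36 ± 0.13 in HK2 knockout cells (adjusted p = 0.0362) and -0.55 ± 0.13 in PGP knockout cells (adjusted p = 0.00239). The HK2 knockout call was lost without DMSO replicate 1 (0.145) and without treated replicate 1 (0.0612), 2 (0.0786) or 3 (0.0795).

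NDUFS6, a zinc-binding accessory subunit at the base of the N module, fell in all 4 comparisons with DMSO. It stood at 339.7, 312 and 316 CPM in wild-type DMSO libraries, 215, 255 and 222 CPM at 6 h and 188, 233 and 179 CPM at 24 h. Both treated groups lay below DMSO, and they overlapped each other. Its log2 fold change was -0.48 ± 0.12 at 6 h (edgeR adjusted p = 0.00481) and -0.69 ± 0.12 at 24 h (adjusted p = 1.10e-04). In HK2 knockout cells it went from 321, 336 and 303 to 207, 188 and 152 CPM, and in PGP knockout cells from 302, 314 and 321 to 192, 214 and 177 CPM. The falls measured -0.81 ± 0.12 (adjusted p = 2.02e-05) and -0.69 ± 0.12 (adjusted p = 1.07e-04). All 4 calls were kept under every alternative and without each library.

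NDUFA6, a small accessory subunit of the LYR family that holds a copy of the acyl carrier protein NDUFAB1 on the peripheral arm, was lower at 24 h in all 3 genotypes. Its wild-type values were 284, 274 and 260.1 CPM in DMSO, 220.5, 256 and 208 CPM at 6 h and 159.6, 205 and 178 CPM at 24 h. The 6 h libraries lay between the other groups and did not overlap them. The 6 h difference missed the threshold with -0.26 ± 0.12 (edgeR adjusted p = 0.114), and the 24 h fold change was -0.59 ± 0.12 (adjusted p = 4.23e-04). Without the 6 h replicate 2 the 6 h difference was -0.35 and passed (adjusted p = 0.0418). HK2 knockout libraries gave 249.6, 244 and 256 CPM in DMSO and 184, 174 and 176 CPM after 24 h, a fold change of -0.49 ± 0.12 (adjusted p = 0.00261). PGP knockout libraries gave 295, 291 and 286 and 154, 172 and 218 CPM, a fold change of -0.68 ± 0.12 (adjusted p = 9.91e-05). No treated knockout library reached its DMSO group.

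NDUFV3 and NDUFA2, 2 accessory subunits of the N module, were called lower at 24 h in all 3 genotypes. NDUFV3 stood at 151, 165 and 143 CPM in wild-type DMSO libraries, 123, 155 and 112 CPM at 6 h and 117, 134 and 113 CPM at 24 h. The 6 h libraries overlapped DMSO (-0.24 ± 0.12, edgeR adjusted p = 0.151), and the 24 h libraries did not (-0.34 ± 0.12, adjusted p = 0.0307). Without the 6 h replicate 2 the 6 h difference passed at -0.39 (adjusted p = 0.0166). The 24 h call was lost without DMSO replicate 1 (0.0552) or 2 (0.107) and without the 24 h replicate 1 (0.0810) or 3 (0.101). NDUFV3 went from 143, 157 and 152 to 116, 104 and 98.4 CPM in HK2 knockout cells (-0.51 ± 0.12, adjusted p = 0.00206). In PGP knockout cells it went from 144, 160.4 and 151 to 117, 102 and 113 CPM (-0.46 ± 0.12, adjusted p = 0.00457). Neither knockout call was lost when a library was left out.

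NDUFA2, which has a thioredoxin-like fold, stood at 96.7, 68.0 and 79.1 CPM in wild-type DMSO libraries and 61.2, 71.6 and 58.1 CPM at 24 h. These groups overlapped, and it was the only one of the complex I calls for which they did (-0.35 ± 0.13, edgeR adjusted p = 0.0422). The call was lost without DMSO replicate 1 (0.240) or 3 (0.0584), without the 24 h replicate 1 (0.102) or 3 (0.133), without the low-count filter (0.0734) and when the compared groups were fitted alone (0.0527). At 6 h its libraries read 74.1, 70.3 and 59.8 CPM (-0.26 ± 0.13, adjusted p = 0.161). The knockouts gave separated groups: 99.6, 79.8 and 77.5 CPM against 59.8, 58.3 and 59.2 CPM in HK2 knockout cells (-0.53 ± 0.13, adjusted p = 0.00333). PGP knockout cells gave 88.0, 87.3 and 83.0 CPM against 64.9, 60.2 and 63.9 CPM (-0.45 ± 0.13, adjusted p = 0.0106).

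The other N-module genes differed in what they did. NDUFA12, an accessory subunit and paralog of the assembly factor NDUFAF2, was called lower at 24 h in wild-type (-0.62 ± 0.16, edgeR adjusted p = 0.00566) and PGP knockout cells (-0.55 ± 0.16, adjusted p = 0.0119). The PGP knockout call was lost without treated replicate 2 (0.0502). NDUFS1, the core subunit with the most iron-sulfur clusters, was called lower at 24 h in HK2 knockout cells (-0.52 ± 0.13, adjusted p = 0.00513) and not in wild-type cells (-0.23 ± 0.13, adjusted p = 0.202). Its wild-type libraries read 41.8, 52.2 and 48.9 CPM in DMSO, 53.1, 57.2 and 54.6 CPM at 6 h and 42.1, 35.3 and 44.1 CPM at 24 h. All 6 h libraries lay above DMSO, but the difference missed the threshold (0.21 ± 0.13, adjusted p = 0.283). NDUFS4, whose loss is known to cause Leigh syndrome, and NDUFA7 were called in no comparison. NDUFS4 stood at 74.3 ± 9.61 CPM (SD, n = 3) in wild-type DMSO cells and 65.6 ± 3.52 CPM at 24 h, and NDUFA7 at 3.69 ± 0.673 and 3.78 ± 0.786 CPM.

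The Q module, which passes electrons to ubiquinone, had no gene called at 6 h and 3 of 6 called lower at 24 h in wild-type cells. These were NDUFS8, a core subunit with 2 iron-sulfur clusters, the core subunit NDUFS3, and the accessory subunit NDUFA5. NDUFS8 stood at 91.7, 82.4 and 82.3 CPM in DMSO, 70.7, 101 and 68.4 CPM at 6 h and 59.4, 59.9 and 71.7 CPM at 24 h. The 24 h libraries lay below DMSO, while 6 h replicate 2 was the highest of the 9. Its 24 h fold change was -0.42 ± 0.15 (edgeR adjusted p = 0.0305), lost without DMSO replicate 1 or 2 or the 24 h replicate 1 or 2 (highest adjusted p 0.106). NDUFS3 and NDUFA5 measured -0.29 ± 0.10 (adjusted p = 0.0344) and -0.39 ± 0.12 (adjusted p = 0.0133) at 24 h. Single libraries also decided these calls: without DMSO replicate 2 or the 24 h replicate 3 both were lost, and NDUFS3 also without DMSO replicate 3 or the 24 h replicate 1 (highest adjusted p 0.142 for NDUFS3 and 0.0703 for NDUFA5). In PGP knockout cells NDUFS8, NDUFS3 and NDUFA5 fell by 0.53, 0.38 and 0.54 on the log2 scale (adjusted p = 0.00738, 0.00598 and 0.00116), calls kept without each library.

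NDUFS7 holds the last iron-sulfur cluster before ubiquinone. Its counts were low, at 8.35, 6.05 and 6.30 CPM in wild-type DMSO libraries and 4.72, 5.55 and 5.25 CPM at 24 h. These groups did not overlap, but the difference of -0.41 ± 0.25 missed the threshold (edgeR adjusted p = 0.242). HK2 knockout cells gave 13.4, 7.64 and 8.27 CPM in DMSO and 4.75, 5.20 and 4.79 CPM after 24 h. The DMSO replicate 1 was the highest of all 21 libraries, and the fold change was -0.97 ± 0.25 (adjusted p = 0.00518), a call kept without that library. The difference between this response and the wild-type response was -0.56 ± 0.36 and was not called (adjusted p = 1.00).

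On the membrane arm, NDUFS5 had the lowest adjusted p of the 45 genes in each of the 3 comparisons at 24 h. It is an accessory subunit facing the intermembrane space beside ND2, with paired cysteines of the CHCH type. Wild-type DMSO libraries read 686, 590.0 and 593 CPM, the 6 h libraries 434, 418 and 374 CPM and the 24 h libraries 312, 327 and 304 CPM. The 3 groups did not overlap and stood in the order of treatment time. Its log2 fold change was -0.61 ± 0.11 at 6 h (edgeR adjusted p = 2.87e-04) and -0.99 ± 0.11 at 24 h (adjusted p = 4.23e-07), where the level fell by 49.6%. The step from 6 h to 24 h was -0.38 ± 0.11 (adjusted p = 0.0179), lost without the 24 h replicate 3 (0.0551) and when the 2 groups were fitted alone (0.0902). HK2 knockout libraries read 557, 546 and 510.4 CPM in DMSO and 332, 289.6 and 284 CPM after 24 h, and PGP knockout libraries 693, 599 and 649 and 262, 278 and 344 CPM. The falls were -0.83 ± 0.11 (adjusted p = 4.75e-06) and -1.13 ± 0.11 (adjusted p = 6.97e-08). The response differed from the wild-type one by 0.15 ± 0.15 in HK2 knockout cells and -0.15 ± 0.15 in PGP knockout cells, neither called (adjusted p = 1.00 for both).

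**Figure D3:**
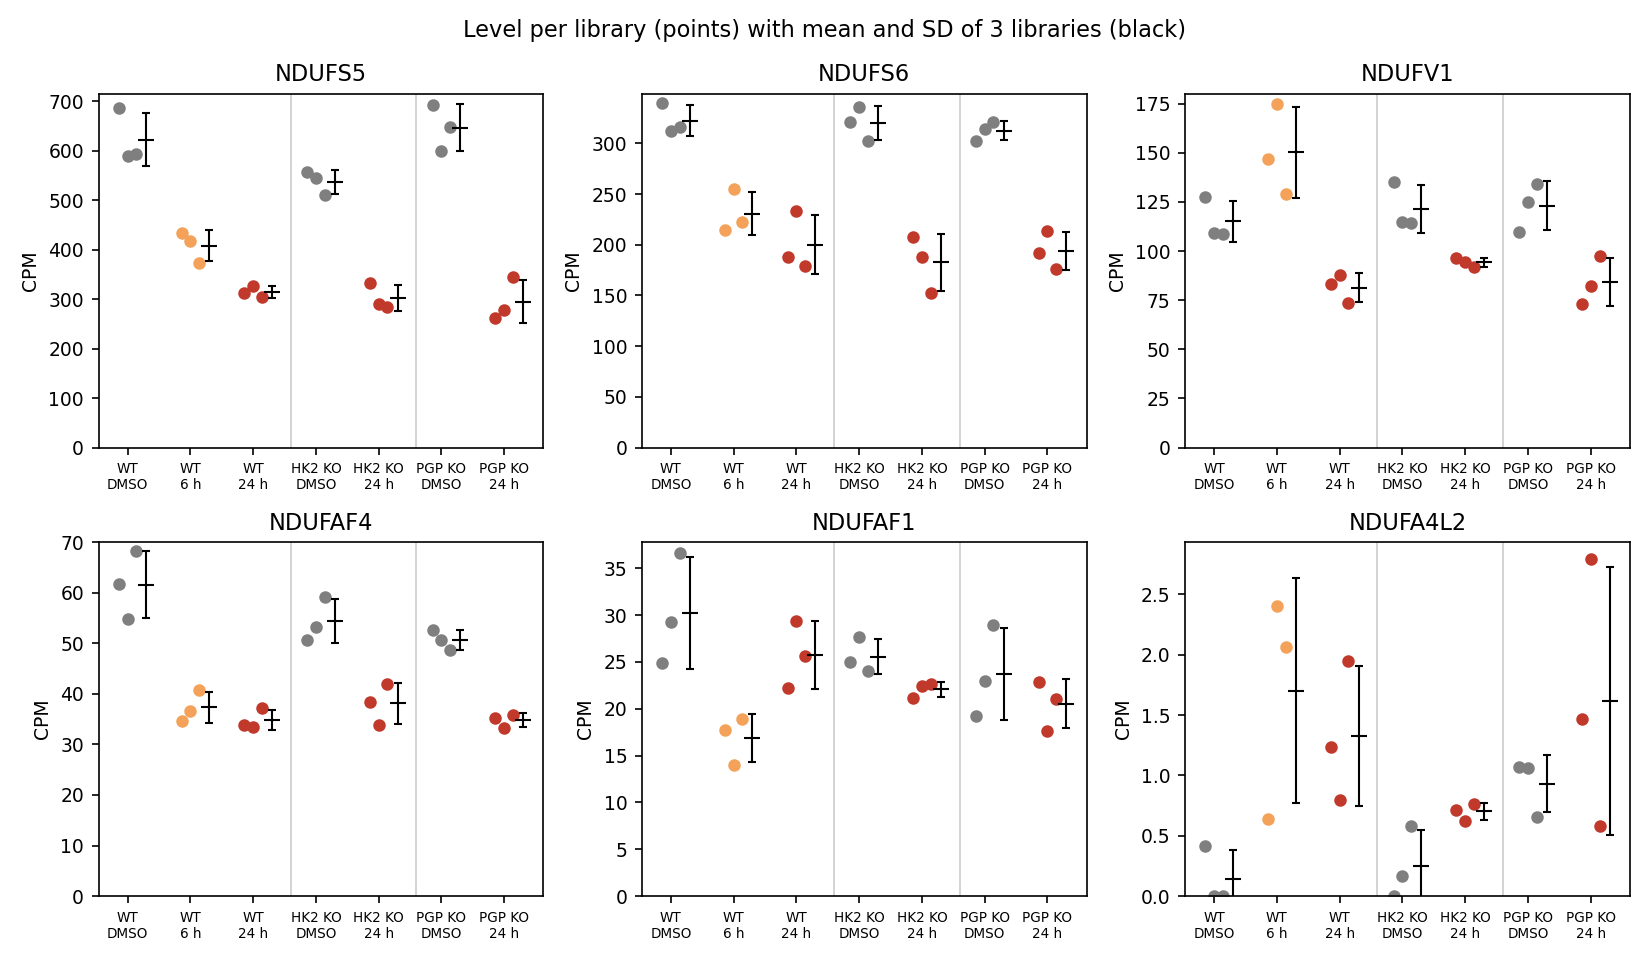
CPM of NDUFS5, NDUFS6, NDUFV1, NDUFAF4, NDUFAF1 and NDUFA4L2 (1 panel each, y axis from 0) in the 21 libraries by group; points are libraries and black bars the mean and SD of 3. NDUFS5, NDUFS6 and NDUFAF4 are lower in every treated library than in every DMSO library of the same genotype, NDUFV1 is highest at 6 h, NDUFAF1 is lowest at 6 h, and NDUFA4L2 stays below 3 CPM.

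NDUFAB1, NDUFB2 and NDUFB10 were called lower in all 4 comparisons with DMSO and reached most of their fall by 6 h. NDUFAB1 is the mitochondrial acyl carrier protein, which also serves fatty acid synthesis and iron-sulfur cluster assembly. It stood at 334, 285 and 310.0 CPM in wild-type DMSO libraries, 215, 187 and 212 CPM at 6 h and 185, 218 and 211 CPM at 24 h. The fold changes at the 2 times were -0.60 ± 0.11 (edgeR adjusted p = 4.45e-04) and -0.60 ± 0.11 (adjusted p = 2.40e-04), and the treated groups overlapped each other. HK2 knockout libraries went from 276, 291 and 287 to 225, 184 and 220.3 CPM (-0.44 ± 0.11, adjusted p = 0.00416). PGP knockout libraries went from 339.7, 288 and 339 to 173, 195 and 218 CPM (-0.72 ± 0.11, adjusted p = 3.14e-05).

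NDUFB2, a small subunit of the distal membrane arm, gave 208, 207 and 199 CPM in wild-type DMSO libraries, 131, 152 and 147 CPM at 6 h and 129.6, 151 and 133 CPM at 24 h. Its fold changes were -0.51 ± 0.12 (edgeR adjusted p = 0.00329) and -0.57 ± 0.12 (adjusted p = 8.21e-04), again with overlapping treated groups. It went from 192, 191 and 197 to 151, 148 and 126 CPM in HK2 knockout cells (-0.45 ± 0.12, adjusted p = 0.00605) and from 193, 211 and 242 to 117, 135 and 165 CPM in PGP knockout cells (-0.63 ± 0.12, adjusted p = 2.81e-04). No treated library reached its DMSO group. NDUFB10, a cysteine-rich subunit facing the intermembrane space, gave 204, 166 and 178 CPM in wild-type DMSO libraries, 145, 124 and 136 CPM at 6 h and 129, 140.2 and 119 CPM at 24 h. The fold changes were -0.44 ± 0.11 (adjusted p = 0.00473) and -0.50 ± 0.11 (adjusted p = 9.09e-04), and the 6 h call was lost when the compared groups were fitted alone (0.0623). In HK2 knockout cells NDUFB10 went from 188, 169 and 179 to 132, 118 and 128 CPM (-0.50 ± 0.11, adjusted p = 0.00100), and in PGP knockout cells from 190.5, 178 and 195 to 114, 126 and 138 CPM (-0.57 ± 0.11, adjusted p = 2.28e-04).

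NDUFA3, a small subunit near the junction of the arms on the side of ND1, was lower at both times in wild-type cells. It gave 168, 148 and 149.6 CPM in DMSO libraries, 119.7, 112 and 117 CPM at 6 h and 111, 127 and 112 CPM at 24 h. Its fold changes were -0.41 ± 0.12 (edgeR adjusted p = 0.0196) and -0.41 ± 0.12 (adjusted p = 0.0145). Without DMSO replicate 1, the highest of the group, the adjusted p was 0.0833 at 6 h and 0.0554 at 24 h, and with the compared groups alone it was 0.0514 at 6 h. HK2 knockout libraries went from 154, 141 and 155 to 103, 117 and 97.8 CPM (-0.50 ± 0.13, adjusted p = 0.00400), and PGP knockout libraries from 159, 163 and 206 to 94.0, 119 and 134 CPM (-0.60 ± 0.13, adjusted p = 7.13e-04).

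Several other membrane-arm genes fell at 6 h and were not called at 24 h in wild-type cells. NDUFA1, a single-span subunit beside ND1, measured -0.65 ± 0.18 at 6 h (edgeR adjusted p = 0.0113) and -0.35 ± 0.18 at 24 h (adjusted p = 0.145), and the first call was lost when the compared groups were fitted alone (0.0982). NDUFC1 measured -0.93 ± 0.26 at 6 h (adjusted p = 0.0143). This call was lost without the 6 h replicate 2 (0.0638), the library in which it was lowest, without DMSO replicate 3 (0.102) and with the compared groups alone (0.0976). NDUFA8 measured -0.41 ± 0.13 (adjusted p = 0.0224), lost without the 6 h replicate 2 (0.115) or DMSO replicate 2 (0.0790) and with the compared groups alone (0.120). NDUFB8 showed another course, with 120.5, 121 and 103 CPM in DMSO libraries, 115, 173 and 106 CPM at 6 h and 79.3, 95.4 and 76.4 CPM at 24 h. The 24 h libraries lay below both other groups, by 0.45 ± 0.15 against DMSO (adjusted p = 0.0268) and 0.65 ± 0.15 against 6 h on the log2 scale (adjusted p = 0.00477; 0.0814 with these groups alone). The first of these was lost without DMSO replicate 1 or 2 or without the 24 h replicate 1 or 3 (highest adjusted p 0.0936).

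NDUFB1, a single-span subunit near ND4, was called lower in all 4 comparisons with DMSO and NDUFB9, an LYR protein that binds NDUFAB1 near ND5, in the 3 at 24 h. NDUFB1 measured -0.46 ± 0.11 at 6 h (edgeR adjusted p = 0.00406; 0.0751 with the compared groups alone), -0.34 ± 0.11 at 24 h (adjusted p = 0.0230) and -0.32 ± 0.11 and -0.38 ± 0.11 in HK2 and PGP knockout cells (adjusted p = 0.0311 and 0.00998). The wild-type call at 24 h was lost without DMSO replicate 1 (0.0666) or the 24 h replicate 3 (0.0540), and the HK2 knockout call without DMSO replicate 1 or 2 or treated replicate 2 or 3 (highest 0.0838). NDUFB9 measured -0.39 ± 0.11 in wild-type cells at 24 h (adjusted p = 0.00830), a call kept without each library. Its HK2 knockout call (-0.29 ± 0.11, adjusted p = 0.0456) was kept only without treated replicate 1, and its PGP knockout call (-0.34 ± 0.11, adjusted p = 0.0199) was lost without DMSO replicate 2 or 3 or treated replicate 1 (highest adjusted p 0.144 and 0.0837). NDUFB4 and NDUFB7, also of the distal membrane arm, measured -0.45 ± 0.15 (adjusted p = 0.0319) and -0.54 ± 0.17 (adjusted p = 0.0186) at 24 h in wild-type cells. Without single wild-type libraries these reached adjusted p of up to 0.110 and 0.120.

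Of the 8 assembly factors, 6 were called lower at 6 h, beside 12 of the 37 structural genes tested and 11.1% of all genes tested. The difference between the classes was not tested. With the compared groups fitted alone, 7 members in place of 20 were called at 6 h, and NDUFAF2, NDUFAF7 and NDUFAF8 were among those lost. NDUFAF4, which acts with NDUFAF3 early in the building of the Q module, stood at 61.8, 54.9 and 68.2 CPM in wild-type DMSO libraries, 34.6, 36.7 and 40.7 CPM at 6 h and 33.9, 33.5 and 37.1 CPM at 24 h. Its fold changes were -0.72 ± 0.12 (edgeR adjusted p = 1.06e-04) and -0.82 ± 0.12 (adjusted p = 1.17e-05). Its partner NDUFAF3 was called in no comparison. It read 98.1, 101 and 100.4 CPM in DMSO libraries, 89.7, 120.3 and 105 CPM at 6 h and 98.2, 101 and 104 CPM at 24 h, with all groups overlapping. NDUFAF4 went from 50.7, 53.3 and 59.2 to 38.5, 33.9 and 42.0 CPM in HK2 knockout cells (-0.51 ± 0.12, adjusted p = 0.00198) and from 52.7, 50.6 and 48.7 to 35.2, 33.2 and 35.9 CPM in PGP knockout cells (-0.54 ± 0.12, adjusted p = 0.00124). The HK2 knockout response differed from the wild-type one by 0.31 ± 0.17, which was not called (adjusted p = 1.00). NDUFAF3 was called in neither knockout, with 105, 103 and 111 CPM and 101, 104 and 101 CPM in HK2 knockout cells and 102, 134 and 139 CPM and 85.4, 104 and 123 CPM in PGP knockout cells.

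NDUFAF8 and NDUFAF5 also form a known pair, in which NDUFAF5 hydroxylates NDUFS7 and NDUFAF8 stabilises it. NDUFAF8 stood at 349, 368 and 303 CPM in wild-type DMSO libraries, 235, 296 and 193 CPM at 6 h and 207, 220.0 and 205 CPM at 24 h. The fold changes were -0.50 ± 0.12 (edgeR adjusted p = 0.00523; 0.0888 when the compared groups were fitted alone) and -0.69 ± 0.12 (adjusted p = 1.56e-04). It went from 361, 333 and 317 to 252, 218 and 213 CPM in HK2 knockout cells (-0.57 ± 0.12, adjusted p = 0.00126) and from 361, 372 and 371 to 189, 215 and 217 CPM in PGP knockout cells (-0.83 ± 0.12, adjusted p = 2.00e-05). Treated and DMSO libraries did not overlap in any genotype. NDUFAF5 was called in no comparison. Its wild-type libraries read 7.31, 6.68 and 6.30 CPM in DMSO, 6.404, 6.11 and 5.62 CPM at 6 h and 5.55, 7.54 and 7.97 CPM at 24 h, and its knockout libraries 9.38, 6.62 and 9.23 against 4.99, 5.83 and 6.52 CPM (-0.53 ± 0.22, adjusted p = 0.0812) and 9.90, 7.44 and 6.36 against 5.45, 6.74 and 5.65 CPM (-0.40 ± 0.23, adjusted p = 0.193). The HK2 knockout groups did not overlap, but neither difference passed the threshold.

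NDUFAF1, NDUFAF2, NDUFAF6 and NDUFAF7 were called lower at 6 h, and of them NDUFAF7 also at 24 h in wild-type cells. NDUFAF1, which belongs to the membrane-arm assembly complex with ACAD9 and ECSIT, read 24.8, 29.2 and 36.7 CPM in DMSO libraries, 17.7, 13.97 and 18.9 CPM at 6 h and 22.2, 29.4 and 25.7 CPM at 24 h. The 6 h libraries lay below both other groups, which overlapped. It fell by 0.84 ± 0.18 on the log2 scale at 6 h (edgeR adjusted p = 0.00136), while the 24 h difference was -0.24 ± 0.17 (adjusted p = 0.314). From 6 h to 24 h it rose by 0.61 ± 0.18 (adjusted p = 0.0207), a comparison that shares the 6 h libraries. That rise was lost without the 6 h replicate 2 (0.0893), without the 24 h replicate 2 (0.111) or 3 (0.0642) and when the 2 groups were fitted alone (0.0958). The knockouts showed no called change, with 25.004, 27.7 and 24.0 against 21.1, 22.5 and 22.6 CPM in HK2 knockout cells (-0.21 ± 0.17, adjusted p = 0.388) and 19.3, 22.9 and 28.97 against 22.8, 17.7 and 21.04 CPM in PGP knockout cells (-0.21 ± 0.18, adjusted p = 0.393).

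NDUFAF6, which acts on the ND1 part of the enzyme, read 32.6, 32.8 and 33.0 CPM in wild-type DMSO libraries, 16.4, 20.95 and 24.6 CPM at 6 h and 21.2, 21.4 and 32.3 CPM at 24 h. The 3 DMSO libraries were almost equal, the 6 h libraries all lay below them, and the 24 h replicate 3 stood near DMSO. The fold change was -0.66 ± 0.18 at 6 h (edgeR adjusted p = 0.00916; 0.0550 without the 6 h replicate 1) and -0.39 ± 0.17 at 24 h (adjusted p = 0.0929; 0.0108 without the 24 h replicate 3). The knockouts gave 29.7, 35.1 and 32.3 against 26.6, 25.2 and 28.8 CPM (-0.27 ± 0.17, adjusted p = 0.258) and 30.2, 26.8 and 30.3 against 26.0, 19.8 and 30.4 CPM (-0.19 ± 0.18, adjusted p = 0.446) for HK2 and PGP. NDUFAF7, a methyltransferase, read 14.2, 17.1 and 16.4 CPM in wild-type DMSO libraries, 8.75, 12.7 and 7.50 CPM at 6 h and 12.1, 10.5 and 11.7 CPM at 24 h. Both treated groups lay below DMSO, with -0.73 ± 0.18 at 6 h (adjusted p = 0.00576; 0.0806 with the compared groups alone) and -0.48 ± 0.18 at 24 h (adjusted p = 0.0465). The second call was lost without DMSO replicate 2 (0.125) or 3 (0.106), without any of the 24 h replicates (0.0661, 0.137 and 0.0819) and with DESeq2 (0.0753). In the knockouts NDUFAF7 read 17.2, 13.9 and 14.6 against 11.9, 12.5 and 14.2 CPM (-0.24 ± 0.18, adjusted p = 0.339) and 14.2, 12.7 and 14.05 against 11.3, 10.9 and 13.1 CPM (-0.21 ± 0.18, adjusted p = 0.415).

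NDUFAF2, which binds late intermediates in the place of its paralog NDUFA12, had its lowest adjusted p in HK2 knockout cells. There it went from 53.4, 58.1 and 51.3 CPM in DMSO to 36.3, 34.1 and 29.5 CPM after 24 h, without overlap (-0.71 ± 0.12, edgeR adjusted p = 1.56e-04). Wild-type libraries read 47.8, 49.7 and 45.4 CPM in DMSO, 33.9, 35.8 and 34.5 CPM at 6 h and 39.2, 37.7 and 38.5 CPM at 24 h, again without overlap. The 6 h fold change was -0.45 ± 0.12 (adjusted p = 0.0105; 0.0578 with the compared groups alone) and the 24 h difference -0.31 ± 0.12 (adjusted p = 0.0623). The HK2 knockout response was lower than the wild-type one by 0.40 ± 0.17 on the log2 scale. This difference had an unadjusted p of 0.0317 and an adjusted p of 1.00, so it was not called. PGP knockout libraries went from 57.5, 43.8 and 55.1 to 47.5, 37.7 and 41.1 CPM (-0.30 ± 0.12, adjusted p = 0.0636).

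Complex I genes also fell after 24 h of ironomycin in both knockout lines, with no gene called higher. In HK2 knockout cells 17 genes were called lower, where 13.5% of all genes tested were called lower and 15.9% higher. In PGP knockout cells 25 were called lower, where 15.4% were called lower and 16.1% higher. The markers of other cell types were also highest in the treated PGP knockout libraries, at up to 7.67 CPM summed, and their part in the count was not tested. These were 14 structural genes and 3 assembly factors in HK2 knockout cells, and 23 and 2 in PGP knockout cells. The structural medians were -0.35 and -0.43, beside 0.03 and 0.04 over all genes tested. The 3 genotypes at 24 h use separate DMSO libraries. The set called lower in all of them held 14 genes, which are 14 of the 23 of wild-type, 14 of the 17 of HK2 knockout and 14 of the 25 of PGP knockout cells. They were NDUFV1, NDUFV3, NDUFS6, NDUFA2 and NDUFA6 of the N module, NDUFA3, NDUFS5, NDUFB1, NDUFB10, NDUFB2, NDUFB9 and NDUFAB1 of the membrane arm, and NDUFAF4 and NDUFAF8. Of the 45 genes, 38 had a fold change below zero in all 3 genotypes. The same overlaps were not computed over all genes tested, so whether they are particular to complex I was not tested. Taken singly, 5587 of the 11610 genes tested lay below zero at 24 h in wild-type cells. The numbers were 5476 in HK2 knockout and 5478 in PGP knockout cells. In PGP and not in wild-type cells the calls were NDUFA8, NDUFA9, NDUFA10, NDUFA11 and NDUFC2, of the Q module and the sides of ND1 and ND2, with fold changes from -0.35 to -0.53. Each of these 5 calls was lost when some 1 PGP knockout library was left out, with highest adjusted p from 0.0983 (NDUFA10) to 0.147 (NDUFA9). In HK2 knockout and not in wild-type cells the calls were NDUFS1, NDUFS7 and NDUFAF2, all kept without each library. Called at 24 h in wild-type and in neither knockout were NDUFAF7, NDUFB4 and NDUFB7, each lost when some 1 wild-type library was left out.

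The genes called in 1 genotype and not in another gave no called difference between responses. No gene was called in the difference of the HK2 knockout and wild-type responses by edgeR, where 0% of all genes tested were called. DESeq2 also called 0, and 1 gene, NDUFAF2, had an unadjusted p below 0.05. For PGP knockout against wild-type responses edgeR and DESeq2 called 0 members, edgeR called 0% of all genes, and 0 members had an unadjusted p below 0.05. In DMSO, 0 members were called between HK2 knockout and wild-type cells by either tool, with 0 at an unadjusted p below 0.05 and 0.00861% of all genes called higher. Between PGP knockout and wild-type cells in DMSO both tools called 0 members, edgeR called 0% of all genes, and 4 members, NDUFA4L2, NDUFAF3, NDUFAF4 and NDUFB11, had an unadjusted p below 0.05. A miss of the threshold does not show that the genotypes respond alike. With the replicate number as a block, which pairs the PGP knockout libraries, 5 more genes were called lower there. These were NDUFB7 (-0.44, edgeR adjusted p = 0.00976), NDUFB4 (-0.40, 0.0183), NDUFB11 (-0.29, 0.0312), NDUFA1 (-0.41, 0.0450) and NDUFAF2 (-0.31, 0.0499). The share of all genes called with the block is not given here, so whether the added calls are particular to complex I was not tested.

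**Figure D4:**
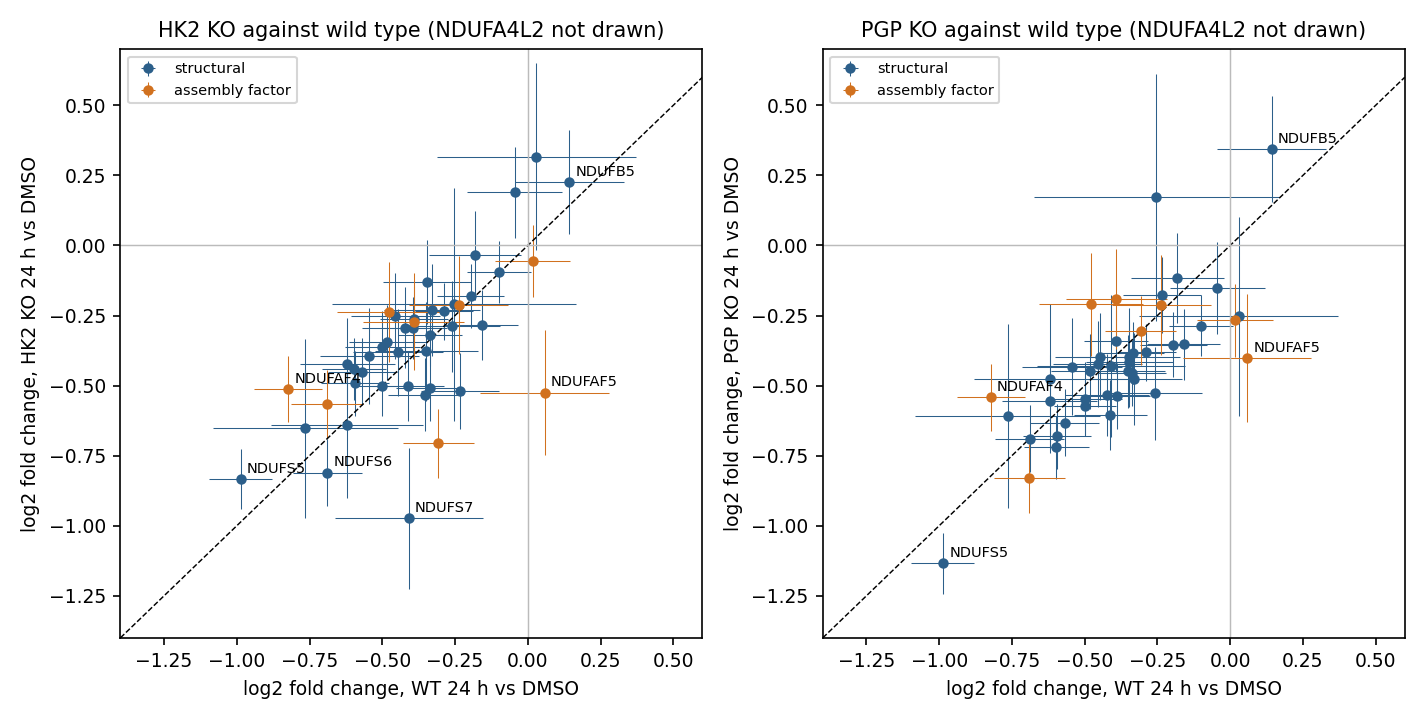
Log2 fold change after 24 h of ironomycin in HK2 knockout cells (left) and PGP knockout cells (right, y axes) against wild-type cells (x axis) for the tested genes, NDUFA4L2 not drawn; bars are SE and the dashed line marks equal responses. NDUFS5 lies lowest in wild-type cells at -0.99 with -0.83 and -1.13 in the knockouts, and NDUFS7 reaches -0.97 in HK2 knockout cells.

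NDUFA4 is listed with complex I by name but is a subunit of complex IV, cytochrome c oxidase. It read 532, 533 and 537 CPM in wild-type DMSO libraries, 423, 302 and 431 CPM at 6 h and 338, 424 and 384 CPM at 24 h. The DMSO libraries were nearly equal, and every treated library lay below them (-0.47 ± 0.13, edgeR adjusted p = 0.0138 at 6 h; -0.48 ± 0.13, adjusted p = 0.00801 at 24 h). The 6 h call was lost without the 6 h replicate 2 (0.0756) and when the compared groups were fitted alone (0.0765). NDUFA4 was also lower in PGP knockout cells (-0.45 ± 0.13, adjusted p = 0.0129; 0.0536 without treated replicate 1), and the HK2 knockout difference was -0.35 ± 0.13 (adjusted p = 0.0544). Its paralog NDUFA4L2 went the other way from a level near the limit of counting. Its 3 wild-type DMSO libraries held 2 counts together, against 25 counts at 6 h and 20 at 24 h. The ratio was 13.4 at 6 h (95% counting interval 3.33 to 116) and 10.4 at 24 h (2.52 to 91.5), with edgeR adjusted p = 0.00691 and 0.0128. The second call was lost without DMSO replicate 2 (0.0569) or 3 (0.0712) or the 24 h replicate 3 (0.0672). Per library it read 0.418, 0 and 0 CPM in DMSO, 0.640, 2.40 and 2.06 CPM at 6 h and 1.23, 0.793 and 1.94 CPM at 24 h. HK2 knockout cells held 4 counts in DMSO and 10 after treatment, a ratio of 2.73 (0.789 to 11.9). PGP knockout cells held 12 and 22, a ratio of 1.68 (0.795 to 3.72), and neither was called. These intervals cover counting error only. With 2 counts in wild-type DMSO, NDUFA4L2 passed the low-count filter only through libraries of other groups, where it was higher. Its calls are therefore not independent of the filter.

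Of the 45 genes, 9 were called in none of the 9 comparisons of the main fit, among them the membrane-arm subunits NDUFB3, NDUFB5, NDUFB6 and NDUFB11. The share of all genes tested that were never called is not given here, so whether this count is unusual was not tested. NDUFB3 was called without the low-count filter between PGP knockout and wild-type DMSO cells. With the replicate block, NDUFB11 was called lower in treated PGP knockout cells. For NDUFB6 and NDUFB3, membrane-arm subunits near ND4 and ND5, the spread between libraries was wide. NDUFB6 read 27.1, 27.3 and 36.2 CPM in wild-type DMSO libraries, 22.2, 5.24 and 28.3 CPM at 6 h and 14.6, 19.0 and 19.8 CPM at 24 h. All 24 h libraries lay below DMSO, and the 24 h differences of -0.76 ± 0.32 in wild-type, -0.65 ± 0.32 in HK2 knockout and -0.61 ± 0.33 in PGP knockout cells missed the threshold (edgeR adjusted p = 0.0734, 0.134 and 0.168). NDUFB3 read 39.0, 39.4 and 82.1 CPM in wild-type DMSO libraries and 29.9, 7.20 and 40.1 CPM at 6 h (-1.05 ± 0.44, adjusted p = 0.0891). For both genes the 6 h replicate 2 was the lowest of all 21 libraries. NDUFB5 stood above DMSO in all 3 genotypes at 24 h without a call, by 0.14 ± 0.19 in wild-type, 0.23 ± 0.19 in HK2 knockout and 0.34 ± 0.19 in PGP knockout cells (adjusted p = 0.614, 0.391 and 0.180).

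The 7 complex I subunits encoded by mitochondrial DNA changed in both directions. At 6 h MT-ND3 was called lower and MT-ND4L, MT-ND5 and MT-ND6 higher. At 24 h in wild-type cells MT-ND5 and MT-ND6 were called higher and MT-ND1, MT-ND2, MT-ND3, MT-ND4 and MT-ND4L lower. In HK2 knockout cells 3 were lower and 2 higher, and in PGP knockout cells 4 were lower and 1 higher. Of all genes tested, 11.1% were called lower and 10.9% higher at 6 h, and 14.6% and 15.3% at 24 h in wild-type cells. In the knockouts these shares were 13.5% and 15.9% (HK2) and 15.4% and 16.1% (PGP). The 1 of 7 lower at 6 h and the 1 of 7 higher in PGP knockout cells are near their shares. Of the 5 HK2 knockout calls, MT-ND3 and MT-ND5 held without each library, while MT-ND2, MT-ND4 and MT-ND6 all lost theirs without treated replicate 1 (adjusted p = 0.147, 0.0631 and 0.117, edgeR). MT-ND2 was also lost without any of the DMSO replicates or treated replicate 2 (0.0527 to 0.162), and MT-ND6 without any of the DMSO replicates or treated replicate 3 (0.0657 to 0.137). MT-ND3, a small core subunit of the membrane arm, read 9119, 8695 and 10439.8 CPM in DMSO libraries, 1920.2, 3847 and 3197 CPM at 6 h and 1667, 2529.6 and 2569 CPM at 24 h. Its fold changes were -1.66 ± 0.21 (edgeR adjusted p = 4.86e-06) and -2.06 ± 0.21 (adjusted p = 1.32e-07), and -1.66 ± 0.21 and -1.88 ± 0.21 in HK2 and PGP knockout cells (adjusted p = 2.52e-06 and 4.57e-07). No treated library reached its DMSO group. MT-ND4, a proton-pumping subunit, read 4970.5, 5060.5 and 7138 CPM in DMSO libraries and 2027, 3149.7 and 3062 CPM at 24 h (-1.06 ± 0.22, adjusted p = 8.17e-04). The 6 h difference was -0.48 ± 0.22 (adjusted p = 0.124). MT-ND2, another proton-pumping subunit, read 3091, 3358 and 4167 CPM in DMSO libraries and 1556, 2637 and 2358 CPM at 24 h (-0.70 ± 0.18, adjusted p = 0.00473).

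MT-ND5, the pumping subunit at the far end of the membrane arm, went up instead. It read 1309, 1196 and 1244 CPM in wild-type DMSO libraries, 2993, 4423 and 3377 CPM at 6 h and 1774, 2186 and 2003 CPM at 24 h. The 3 groups did not overlap, with fold changes of 1.53 ± 0.15 (edgeR adjusted p = 1.25e-07) and 0.67 ± 0.14 (adjusted p = 9.88e-04). It was also higher in HK2 knockout (0.65 ± 0.14, adjusted p = 0.00135) and PGP knockout cells (0.58 ± 0.14, adjusted p = 0.00337). MT-ND6, encoded beside it on the opposite strand, measured 1.68 ± 0.14 at 6 h (adjusted p = 2.81e-08) and 0.46 ± 0.14 at 24 h (adjusted p = 0.0158; up to 0.0999 without DMSO replicate 1 or 2 or the 24 h replicate 2 or 3). Whether the counting used strand is not given in the sources used here, so reads of MT-ND5 and MT-ND6 may be mixed and both values are uncertain. The sum of the 7 genes was 22929, 22598 and 29021 CPM in wild-type DMSO libraries, 15114, 22809.7 and 20779.6 CPM at 6 h and 9940.0, 14783 and 13877 CPM at 24 h. Sums at 24 h lay below DMSO, and sums at 6 h overlapped it.

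**Figure D5:**
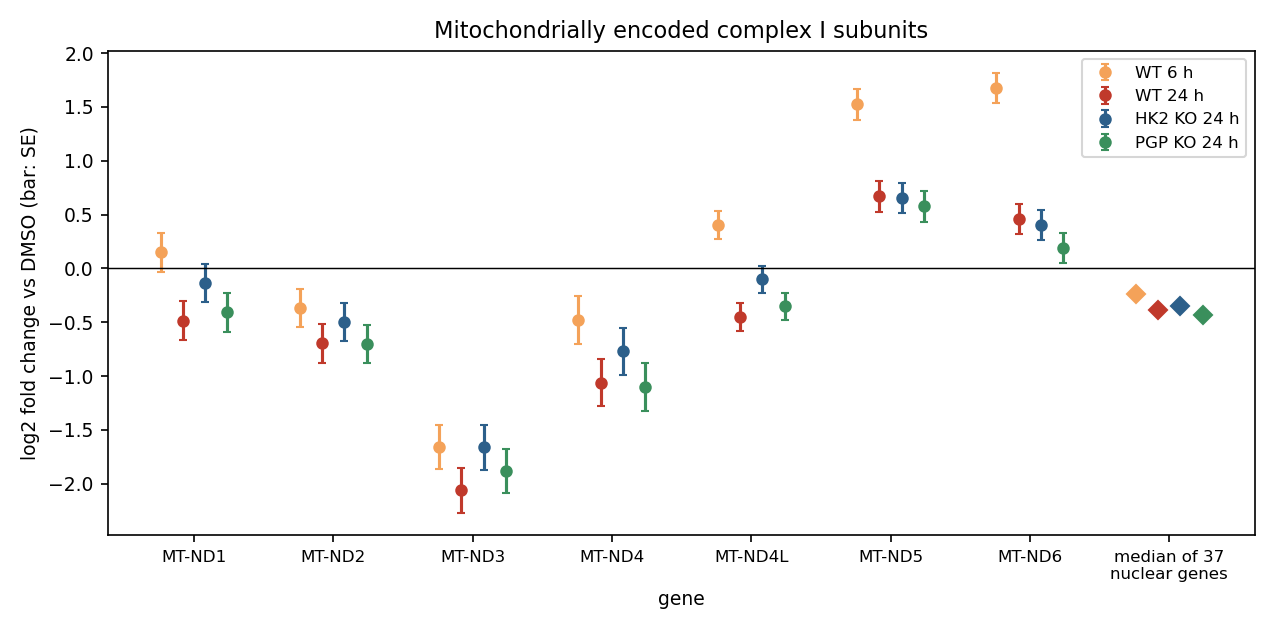
Log2 fold change ± SE (y axis) of the 7 mitochondrially encoded subunits in the 4 comparisons of ironomycin with DMSO, with the median of the 37 tested nuclear structural genes as diamonds. MT-ND3 lies between -1.66 and -2.06, MT-ND5 between 0.58 and 1.53, and the nuclear median between -0.24 and -0.43.

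Of 13 assembly factors of complex I without the NDUF name, 2 were called lower at 6 h, and 5 lower and 1 higher at 24 h in wild-type cells. Over all tested genes 11.1% were called lower at 6 h, and 14.6% lower and 15.3% higher at 24 h, so the 2 of 13 at 6 h is near the background. The higher one, TIMMDC1, measured 0.25 ± 0.09 (edgeR adjusted p = 0.0459) and lost its call without any of the 6 libraries (0.0531 to 0.172), with RLE size factors (0.0563) and without the low-count filter (0.351). DMAC1 and TMEM70 were the ones lower at 6 h, and ACAD9, AIFM1, DMAC1, DMAC2 and FOXRED1 those lower at 24 h. In HK2 knockout cells ACAD9 and DMAC1, and in PGP knockout cells ACAD9, DMAC1, DMAC2, ECSIT and FOXRED1, were called lower. The background shares called lower there were 13.5% and 15.4%, and the 2 of 13 in HK2 knockout cells is near its own. Both HK2 knockout calls were lost without treated replicate 3 (edgeR adjusted p = 0.0616 for ACAD9 and 0.0729 for DMAC1). DMAC1 was also lost there without DMSO replicate 2 (0.0678) or 3 (0.0899) and without the low-count filter (0.121). DMAC1, a factor of the distal membrane arm, read 83.7, 92.9 and 89.2 CPM in wild-type DMSO libraries, 56.6, 68.5 and 59.1 CPM at 6 h and 68.2, 64.3 and 63.4 CPM at 24 h. It measured -0.53 ± 0.11 (edgeR adjusted p = 8.35e-04) and -0.44 ± 0.10 (adjusted p = 0.00248), and -0.66 ± 0.11 in PGP knockout cells (adjusted p = 4.45e-05). ACAD9, the partner of NDUFAF1, read 35.5, 38.8 and 31.5 CPM in wild-type DMSO libraries and 23.8, 26.2 and 23.3 CPM at 24 h (-0.53 ± 0.17, adjusted p = 0.0203; 0.0714 without DMSO replicate 2, 0.0511 and 0.0569 without the 24 h replicates 1 and 3). At 6 h, where NDUFAF1 fell, the ACAD9 difference was -0.26 ± 0.17 (adjusted p = 0.279). DMAC2 measured -0.37 ± 0.10 at 24 h (adjusted p = 0.00717) and FOXRED1 -0.48 ± 0.17 (adjusted p = 0.0396). FOXRED1 lost its call without DMSO replicate 1 (0.116) or 3 (0.106) or the 24 h replicate 1 (0.0592) or 2 (0.149), and it was lower in PGP knockout cells (-0.83 ± 0.18, adjusted p = 8.98e-04).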

How the data were processed

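RNA of 21 MV4-11 libraries in 7 groups of 3 was analysed from the deposited table of read counts per gene. The authors made these counts from total RNA with a QuantSeq 3′ kit, per the labels' protocols, and bcl2fastq 2.20.0.422, HISAT2, HTSeq and hg19 are named in the submitters' processing notes. Parameters and the use of strand are not given in the sources used here. Rows without a symbol were named by their gene ID from GENCODE 29. Members and lists were chosen with earlier results of these data known.

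Counts were fitted with edgeR 4.0.16 (R 4.3.3, limma 3.58.1): TMM scaling, filterByExpr with a minimum of 10 counts and a total of 15, 1 quasi-likelihood fit of all 7 groups, and Benjamini-Hochberg adjustment over 11610 genes in each of 9 comparisons, called under 0.05. All adjusted p-values in the text are from this test unless DESeq2 is named. CPM are counts divided by the TMM-scaled library size. The script was tested on simulated data. Each result was recomputed with DESeq2 1.42.0, with RLE in place of TMM, without the filter, with a block for the replicate number, from the compared groups alone, and with each library left out. Counting intervals are exact, at 95%. Tables and figures used Python 3.11.15, pandas 2.3.3, numpy 2.4.6, scipy 1.17.1 and matplotlib 3.10.9.

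Values per library are given for members called in at least 3 of the 4 comparisons with DMSO (12 at most, by smallest adjusted p), members called higher in any of these, all NDUFAF genes, and up to 4 genes of each related list. NDUFS1, NDUFS7, NDUFS8, NDUFB3, NDUFB6, NDUFB8 and NDUFA4 were added after their values were seen. Replicate numbers were checked for pairing: same-numbered deviations correlated above 0.1 in every pair only between the PGP knockout groups (lowest 0.164, highest 0.247). That pairing comes from the data alone. The values of 1 tested subunit are not reported here.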

Additional observations from a re-analysis of the deposited data

How the results depend on the processing

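No fold change among the calls turned its direction under the alternatives or without a library. Members that were not called were not all checked for this. The counts of called members moved as follows. With only the compared groups fitted, 7 members were called at 6 h in place of 20, and 1 from 6 h to 24 h in place of 7, but 28 at 24 h in place of 24, 24 in HK2 knockout cells in place of 17 and 30 in PGP knockout cells in place of 25. The cause was not tested. Without the low-count filter 1 member, NDUFB3, was called between PGP knockout and wild-type DMSO cells (-0.66, edgeR adjusted p = 0.0206), where the filtered fit called 0. Leaving out each library in turn gave 18 to 24 calls at 6 h, 16 to 21 at 24 h (24 with all libraries), 3 to 12 from 6 h to 24 h, 14 to 18 in HK2 knockout cells and 18 to 28 in PGP knockout cells. It gave 0 in each of the 4 comparisons that had 0.

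With the replicate number as a block, 24 members were called at 6 h, 28 at 24 h, 10 from 6 h to 24 h, 24 in HK2 knockout cells and 30 in PGP knockout cells. Only in the PGP knockout comparison did every same-numbered pair correlate above 0.1. Elsewhere some pair did not, which does not show that the numbers are unrelated there. The main fit used no block. DESeq2 gave 21, 23, 9, 19 and 27 in the same order, RLE size factors 21, 24, 9, 19 and 27, and no filter 23, 23, 9, 22 and 28. The shares of all genes called under the alternatives are not given beside these counts. Of 93 member calls, 50 were kept under every alternative and without each library, 26 were lost under another setting and 35 without some library. Genes under about 10 CPM, such as NDUFS7 and NDUFA4L2, rest on few counts in each library, which limits their precision.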
